A study of Homo sapiens with 36 samples.

Results

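The RNA of 9 mantle cell lymphoma lines was compared with that of 5 diffuse large B-cell lymphoma lines of the activated B-cell-like (ABC) type, 14 of the 36 human lymphoma lines in the series. The mantle lines were GRANTA519, JEKO1, JVM2, MAVER1, MINO, REC1, SP49, SP53 and UPN1, and the ABC lines were HBL1, RIVA, SUDHL2, TMD8 and U2932. The lines were assigned to the 2 types by name, since the labels give each line's name and no disease. All were untreated as far as the labels say, each was lysed and sequenced once by a targeted RNA-Seq panel, and no transgene or treatment is named. GRANTA519 and JVM2 are known to carry Epstein-Barr virus, and JVM2 was derived from a prolymphocytic leukaemia with the mantle-type translocation. Each line is a single culture, so p-values measure the spread between lines and not between repeat cultures of a line.

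Mantle cell lymphoma arises from B cells of the follicle's mantle zone, and its defining lesion is a translocation that places the cyclin D1 gene, CCND1, beside the immunoglobulin heavy-chain locus. ABC lymphoma resembles B cells that are leaving the germinal centre for the plasma cell fate. It is known for chronic B-cell receptor, MYD88 and NF-kB signalling and for high IRF4 and STAT3.

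Of 2549 panel genes, 2272 reached at least 10 CPM in at least 4 of the 14 lines and were tested. Levels are in CPM, counts scaled by library size and by the TMM factor, which corrects each library for its composition. Probes differ between genes, so levels are compared between lines and never between genes. ABC values are given in the order HBL1, RIVA, SUDHL2, TMD8 and U2932. The log2 difference is mantle minus ABC from edgeR's quasi-likelihood fit, given with its standard error (SE), and it weighs high lines more than a difference of log means does. Adjusted p are Benjamini-Hochberg values of that fit over all 2272 genes unless another tool is named. A gene was called at an adjusted p under 0.05. A gene with an unadjusted p under 0.05 that was not called is said to lean to the side with the higher fitted level, which is a description and no call.

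Totals ran from 8163552 to 12472040 counts per library. The B-cell markers MS4A1, CD79A, CD22, PAX5 and CD74 were detected in all 14 lines, the lowest being MS4A1 at 86.5 CPM in UPN1. Several libraries stood apart. RIVA had a median Pearson r of log2 CPM of 0.861 with the mantle lines and 0.775 with the other ABC lines, and its nearest line was JEKO1 at r = 0.890. On the first principal component, which held 28.4% of the variance, RIVA scored 27.2 and the other ABC lines -26.5 to -43.4. SUDHL2 and TMD8 were alike at r = 0.919, and SP49 and SP53 at r = 0.945. TMM factors ran from 0.705 to 1.16 in the mantle lines (median 0.927) and from 0.951 to 1.41 in the ABC lines (median 1.24). The mean log2 factor differed by -0.40 (exact permutation test over 2002 groupings, two-sided p = 0.0225), so the type of line and the composition of the library moved together.

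CCND1 was checked first, because it marks the mantle type. It ran from 8.68 CPM in JEKO1 to 22380 in MAVER1 in the mantle lines (median 104) and was 14.1, 8.91, 22.8, 15.0 and 85.0 CPM in the ABC lines. MAVER1, MINO, GRANTA519 and JVM2 reached 2306 CPM or more and REC1 104. SP49 (31.5) and UPN1 (14.2) lay within the ABC range and SP53 (8.79) and JEKO1 (8.68) just below it, so for this gene 4 of the 9 lines assigned to the mantle type did not exceed the ABC lines. Where in the transcript the panel's probe lies is not given in the sources used here. A low CCND1 count alone therefore does not show that a line lacks the RNA or is wrongly assigned. CCND1 was not called (log2 difference 7.34 ± 2.14 SE, adjusted p = 0.112), and with the log2 TMM factor in the fit its difference was 3.03. With JEKO1, SP49, SP53 or UPN1 left out in turn, the whole comparison called 4, 0, 0 and 5 genes.

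With all 14 lines, 4 of 2272 genes (0.176%) were called: the integrin gene ITGA4 was higher in mantle lines, and PTK2, CREB3L1 and FES were higher in ABC lines. Counting these 4, 258 genes (11.4%) had an unadjusted p under 0.05 with the mantle level higher and 204 (8.98%) with the ABC level higher. The counts of the gene lists below are to be read beside these shares. The lists were chosen with earlier results of these data known, so a count above these shares is a description and no independent support. At an adjusted p under 0.10 there were 14 and 23 genes. The median log2 difference over all tested genes was 0.06. In the volcano plot, CREB3L1 is the only called gene among those with a fitted difference past 4 log2 units in either direction.

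**Figure D1:**
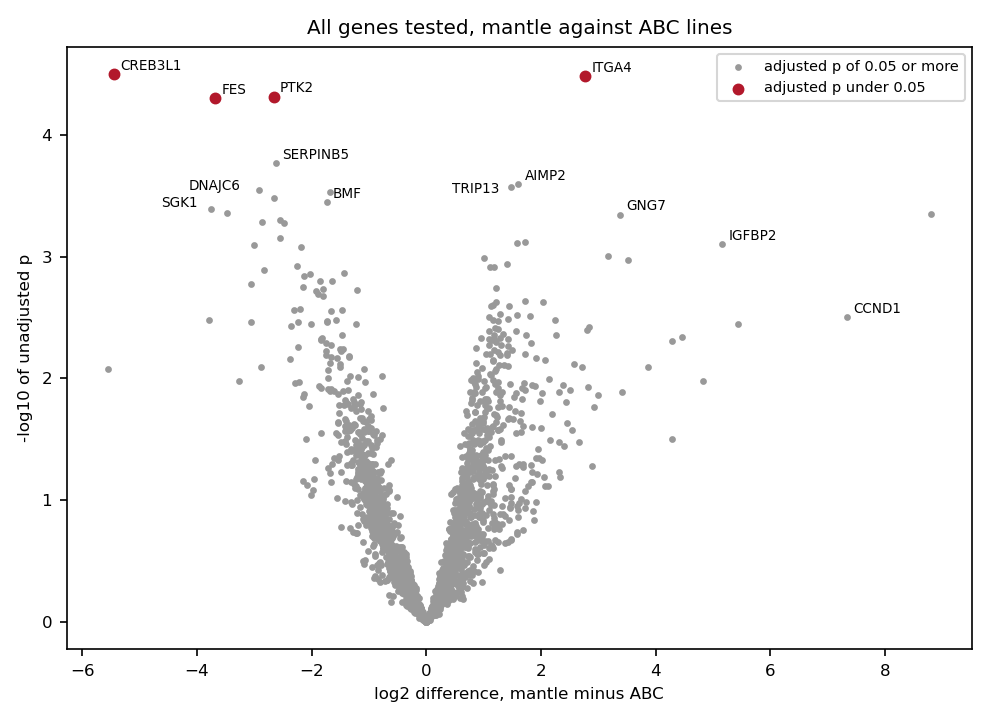
Log2 difference between mantle and ABC lines (x axis) against -log10 of the unadjusted p (y axis) for the 2272 genes tested. The 4 red points are the genes with an adjusted p under 0.05, and only ITGA4 among them lies on the mantle side.

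The count of calls depended on which lines were in the fit, and on RIVA most. Without RIVA, 161 of 2270 genes (7.09%) were called higher in mantle lines and 106 (4.67%) higher in the other 4 ABC lines, and all 4 genes called with every line kept their call. For 232 of those 267 genes RIVA lay nearer to the mantle mean than to the mean of the other ABC lines. These genes were picked because the other 4 ABC lines differed from the mantle lines. A line left out of the fit can lie nearer the mantle mean for that reason alone. That count was not made over all tested genes, so no conclusion about RIVA is drawn from it. Leaving out GRANTA519, MINO, SP49, SP53, SUDHL2 or TMD8 gave 0 calls, REC1 gave 1, and the remaining lines gave between 4 and 14. Below, each gene's value without RIVA is given where its call changes. That fit is 1 of 14 without 1 line and gave the most calls, so a call in it alone does not stand for all lines.

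**Figure D2:**
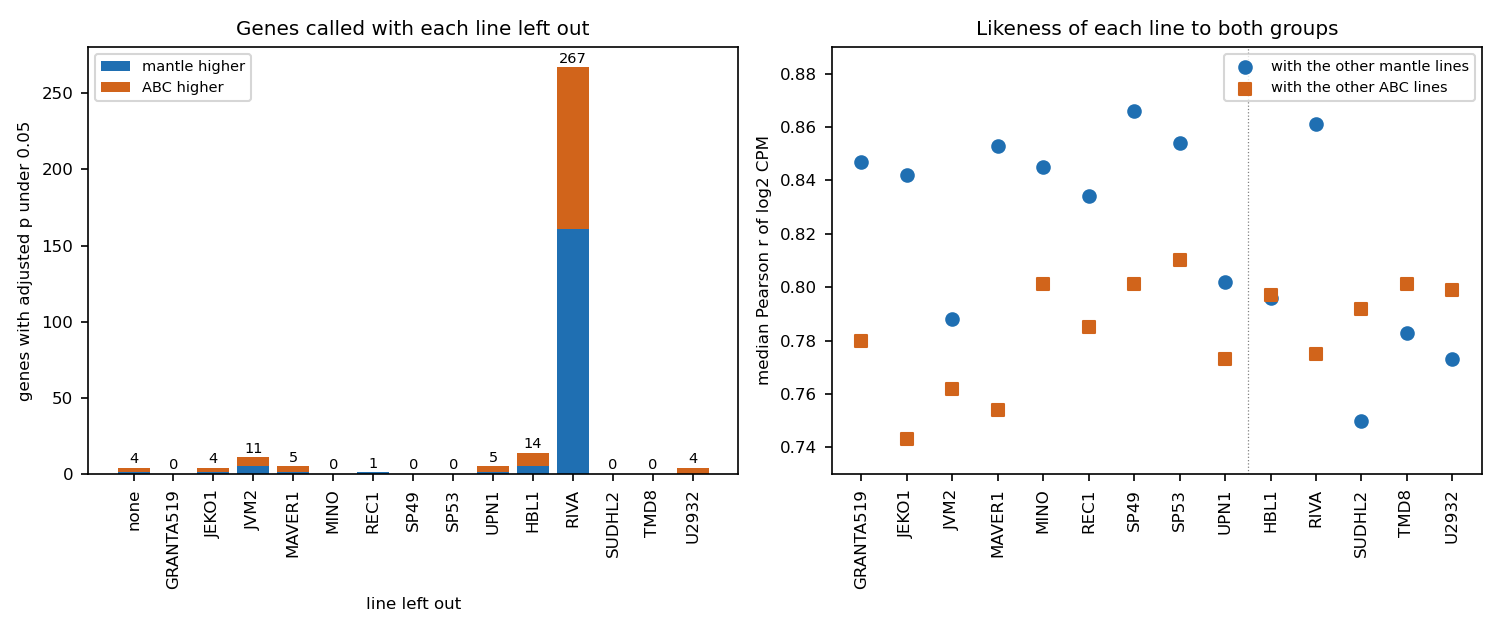
Left, number of genes called (y axis) with no line or with the named line left out (x axis), in blue for mantle higher and orange for ABC higher; the bar without RIVA reaches 267 and no other exceeds 14. Right, median Pearson r of log2 CPM of each line with the other mantle lines (blue circles) and with the other ABC lines (orange squares), where RIVA is nearer to the mantle lines at 0.861 than to the ABC lines at 0.775.

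ITGA4 encodes the alpha-4 integrin chain, which pairs with beta-1 or beta-7 chains in lymphocyte homing (chromosome 2, 181457202 to 181536187, GRCh38). Its level ran from 306 CPM in REC1 to 1799 in JEKO1 in the mantle lines (median 828) and was 135, 45.4, 167, 206 and 185 CPM in the ABC lines. Every mantle line lay above every ABC line, with REC1 the lowest mantle line and RIVA well below the other ABC lines. The fitted difference was 6.85-fold (log2 difference 2.78 ± 0.50 SE, adjusted p = 0.028). Leaving out each line in turn gave adjusted p from 0.0185 (without RIVA) to 0.0979 (without SUDHL2), and 7 of 14 such fits called it. The limma-trend test on the authors' log2 values, another tool, also called it (adjusted p = 0.0419), and limma-voom did not (adjusted p = 0.06). Without SUDHL2 and TMD8 the log2 difference was 3.06 (adjusted p = 0.232). As each library is a bulk lysate, more cells with the RNA and more RNA per cell cannot be told apart.

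PTK2 encodes focal adhesion kinase, which acts downstream of integrins. It ran from 11.0 CPM in JEKO1 to 64.7 in SP53 in the mantle lines (median 41.8) and was 77.3, 186, 588, 372 and 93.5 CPM in the ABC lines. The groups did not overlap: the highest mantle line, SP53, lay below HBL1, the lowest ABC line, and SUDHL2 and TMD8 were the highest. It was 6.32-fold higher in ABC lines (log2 difference -2.66 ± 0.49 SE, adjusted p = 0.028). Its adjusted p ran from 0.00638 (without HBL1) to 0.127 (without SUDHL2), and without both SUDHL2 and TMD8 the log2 difference was -1.52 (adjusted p = 0.342).

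The calls of CREB3L1 and FES rested on SUDHL2 and TMD8. CREB3L1 encodes a membrane-bound transcription factor that is released from the endoplasmic reticulum (chromosome 11, 46277661 to 46321422). Its level ran from 2.87 CPM in MAVER1 to 28.0 in REC1 in the mantle lines (median 13.8) and was 22.1, 9.19, 1743, 1386 and 32.2 CPM in the ABC lines. SUDHL2 and TMD8 stood far above all other lines, while HBL1 and RIVA lay within the mantle range. The fitted log2 difference was -5.44 ± 0.97 SE (adjusted p = 0.028), and the group means of log2 CPM were 3.66 and 6.79. Without SUDHL2 and TMD8 the log2 difference was -0.53 (adjusted p = 0.76).

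FES encodes a non-receptor tyrosine kinase best known in myeloid cells (chromosome 15, 90883695 to 90895776). It ran from 6.12 CPM in JVM2 to 37.6 in JEKO1 in the mantle lines (median 11.7) and was 22.2, 46.0, 533, 412 and 49.5 CPM in the ABC lines. The same pair of lines was high, RIVA and U2932 lay just above JEKO1, the highest mantle line, and HBL1 lay inside the mantle range. FES was higher in ABC lines (log2 difference -3.68 ± 0.69 SE, adjusted p = 0.028), and its log2 difference without SUDHL2 and TMD8 was -1.24 (adjusted p = 0.475). With the log2 TMM factor in the fit, none of the 4 genes passed: adjusted p were 0.335 for ITGA4, 0.348 for PTK2, 0.475 for CREB3L1 and 0.402 for FES, at log2 differences of 2.54, -2.38, -4.55 and -3.53.

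**Figure D3:**
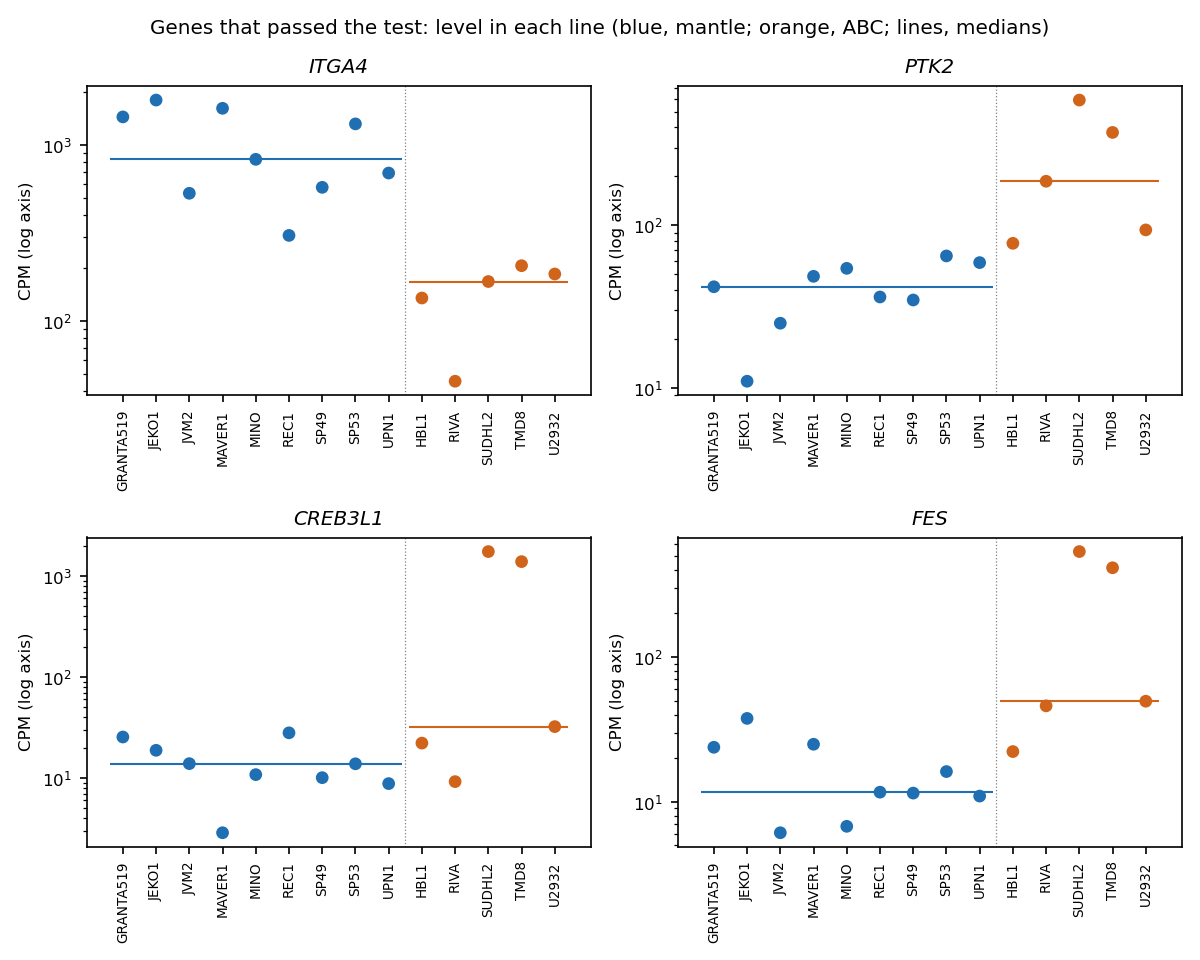
Level in CPM (log y axis) of the 4 called genes in each line (x axis), mantle lines in blue and ABC lines in orange, with a horizontal line at each group's median. ITGA4 and PTK2 separate the groups, and for CREB3L1 and FES the points of SUDHL2 and TMD8 stand alone.

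The remaining 22 lines of the series place these levels. When all 36 lines were scaled together, ITGA4 had a median of 498 CPM in the other lines (35 to 2919), between the medians of the mantle lines (748) and the ABC lines (164). For PTK2 the other lines had a median of 334 CPM, above both the ABC median of 187 and the mantle median of 39.7. CREB3L1 reached at most 126 CPM in the other lines, in FARAGE, which is below SUDHL2 and TMD8.

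Outside the called genes, AIMP2, TRIP13 and GNG7 were among those with the smallest p on the mantle side, each with an adjusted p of 0.0669. AIMP2 encodes a scaffold of the aminoacyl-tRNA synthetase complex. It ran from 188 CPM in UPN1 to 514 in GRANTA519 in the mantle lines (median 434) and was 205, 130, 67.4, 88.3 and 142 CPM in the ABC lines, so that HBL1 alone overlapped, lying above UPN1, the lowest mantle line (1.60 ± 0.35, adjusted p = 0.0669). TRIP13, an ATPase of the spindle checkpoint, ran from 307 CPM in JVM2 to 941 in JEKO1 in the mantle lines (median 698) and was 285, 317, 157, 278 and 180 CPM in the ABC lines, and RIVA alone overlapped, lying above JVM2 (1.47 ± 0.32, adjusted p = 0.0669). Without RIVA both were called (adjusted p = 0.0275 and 0.0231). Of the 14 fits without 1 line, 2 called each gene. The adjusted p of AIMP2 reached 0.174 without TMD8, and that of TRIP13 reached 0.162 without SUDHL2.

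GNG7, a G-protein gamma subunit, ran from 15.1 CPM in REC1 to 515 in JEKO1 in the mantle lines (median 143) and was 36.8, 5.57, 8.68, 14.8 and 15.5 CPM in the ABC lines, with HBL1 and, barely, U2932 inside the mantle range (3.37 ± 0.78, adjusted p = 0.0669). GNG7 was called without RIVA (adjusted p = 0.0326) and in no other of the 14 fits without 1 line. Its adjusted p reached 0.183 without TMD8.

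On the ABC side, SERPINB5 and DNAJC6 came next, also at an adjusted p of 0.0669. SERPINB5, a serpin also known as maspin, ran from 12.9 CPM in JEKO1 to 39.0 in MINO in the mantle lines (median 27.6) and was 66.2, 88.3, 62.3, 36.6 and 529 CPM in the ABC lines. U2932 was the highest, and TMD8 lay below MINO, the highest mantle line (-2.62 ± 0.55, adjusted p = 0.0669). Without U2932 its log2 difference was -1.31 (adjusted p = 0.194). DNAJC6 encodes auxilin, which uncoats clathrin vesicles. It ran from 0.146 CPM in JVM2 to 17.1 in UPN1 in the mantle lines (median 3.79) and was 33.9, 50.0, 44.2, 47.6 and 55.1 CPM in the ABC lines, and no ABC line fell as low as UPN1, the highest mantle line (-2.91 ± 0.64, adjusted p = 0.0669). Without RIVA both were called (adjusted p = 0.0188 and 0.0275). Of the 14 fits without 1 line, 2 called SERPINB5 and 3 called DNAJC6. The adjusted p of DNAJC6 reached 0.158 without TMD8.

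In 11 of 2272 genes (0.484%) every mantle line lay above every ABC line, and in 4 (0.176%) every ABC line lay above every mantle line. These genes were picked after their values were seen, and ITGA4 and PTK2 are the called ones among them. The mantle-high set held NCL and GNL3, which encode nucleolar proteins, POLR2D and GTF2H3, which serve RNA polymerase II transcription, XAB2, DNAJC17 and SNRPB, which act in splicing, HSP90B1, a chaperone of the endoplasmic reticulum, ATG16L1 of autophagy, and FAM64A, a mitotic gene. NCL ran from 3932 CPM in SP49 to 12090 in REC1 in the mantle lines (median 6320) and was 2485, 3257, 1753, 3201 and 844 CPM in the ABC lines, and U2932 was the lowest line (1.58 ± 0.39, adjusted p = 0.079). Without RIVA it was called (adjusted p = 0.0291). The ABC-high set held DNAJC6, FLNC, which encodes a filamin, and AURKC, an aurora kinase best known from germ cells, beside PTK2.

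Among genes tied to mantle cell lymphoma, 5 of 14 tested members leaned to the mantle side and 2 to the ABC side, against 11.4% and 8.98% of all tested genes, and none was called. The median log2 difference of the list was 0.62. With the TMM factor as a covariate, 1 of the 14 leaned to the mantle side and 2 to the ABC side, and the median was 0.26. SOX11, a transcription factor used to diagnose the disease, was not analysed here. CCND2 and CCND3 encode the other D-type cyclins, and CDK4 their kinase. CCND2 ran from 11.4 CPM in JEKO1 to 3906 in JVM2 in the mantle lines (median 38.0) and was 2047, 10.2, 40.6, 365 and 39.9 CPM in the ABC lines, with JVM2 and HBL1 the highest lines of their groups (0.07 ± 1.37, adjusted p = 0.982). CCND3 ran from 85.5 CPM in SP53 to 290 in JVM2 in the mantle lines (median 158) and was 464, 148, 712, 616 and 246 CPM in the ABC lines. RIVA and U2932 lay within the mantle range and the other ABC lines above it (-1.43 ± 0.38, adjusted p = 0.0929), and without RIVA CCND3 was called higher in ABC lines (adjusted p = 0.0188, log2 difference -1.65).

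CDK4 ran from 549 CPM in JVM2 to 2248 in REC1 in the mantle lines (median 924) and was 226, 827, 186, 374 and 357 CPM in the ABC lines. RIVA alone of the ABC lines lay inside the mantle range, and the gene leaned to the mantle side (1.42 ± 0.45, adjusted p = 0.119). Without RIVA it was called (adjusted p = 0.0275). CD5, a surface protein that mantle cell lymphoma usually carries, ran from 2.19 CPM in JVM2 to 234 in MINO in the mantle lines (median 13.7) and was 15.6, 29.9, 9.97, 42.0 and 9.19 CPM in the ABC lines. MINO and MAVER1 were high and the groups overlapped widely (1.27 ± 0.90, adjusted p = 0.38). ATM, the DNA damage kinase that is often lost in this lymphoma, ran from 129 CPM in SP49 to 597 in MINO in the mantle lines (median 278) and was 206, 414, 857, 577 and 400 CPM in the ABC lines, with SUDHL2 alone above the mantle range (-0.69 ± 0.42, adjusted p = 0.32). NOTCH1, a receptor mutated in some mantle cell lymphomas, leaned to the mantle side: it ran from 44.6 CPM in UPN1 to 188 in SP49 in the mantle lines (median 84.8) and was 84.2, 53.8, 26.6, 18.1 and 31.3 CPM in the ABC lines (1.32 ± 0.48, adjusted p = 0.15).

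**Figure D4:**
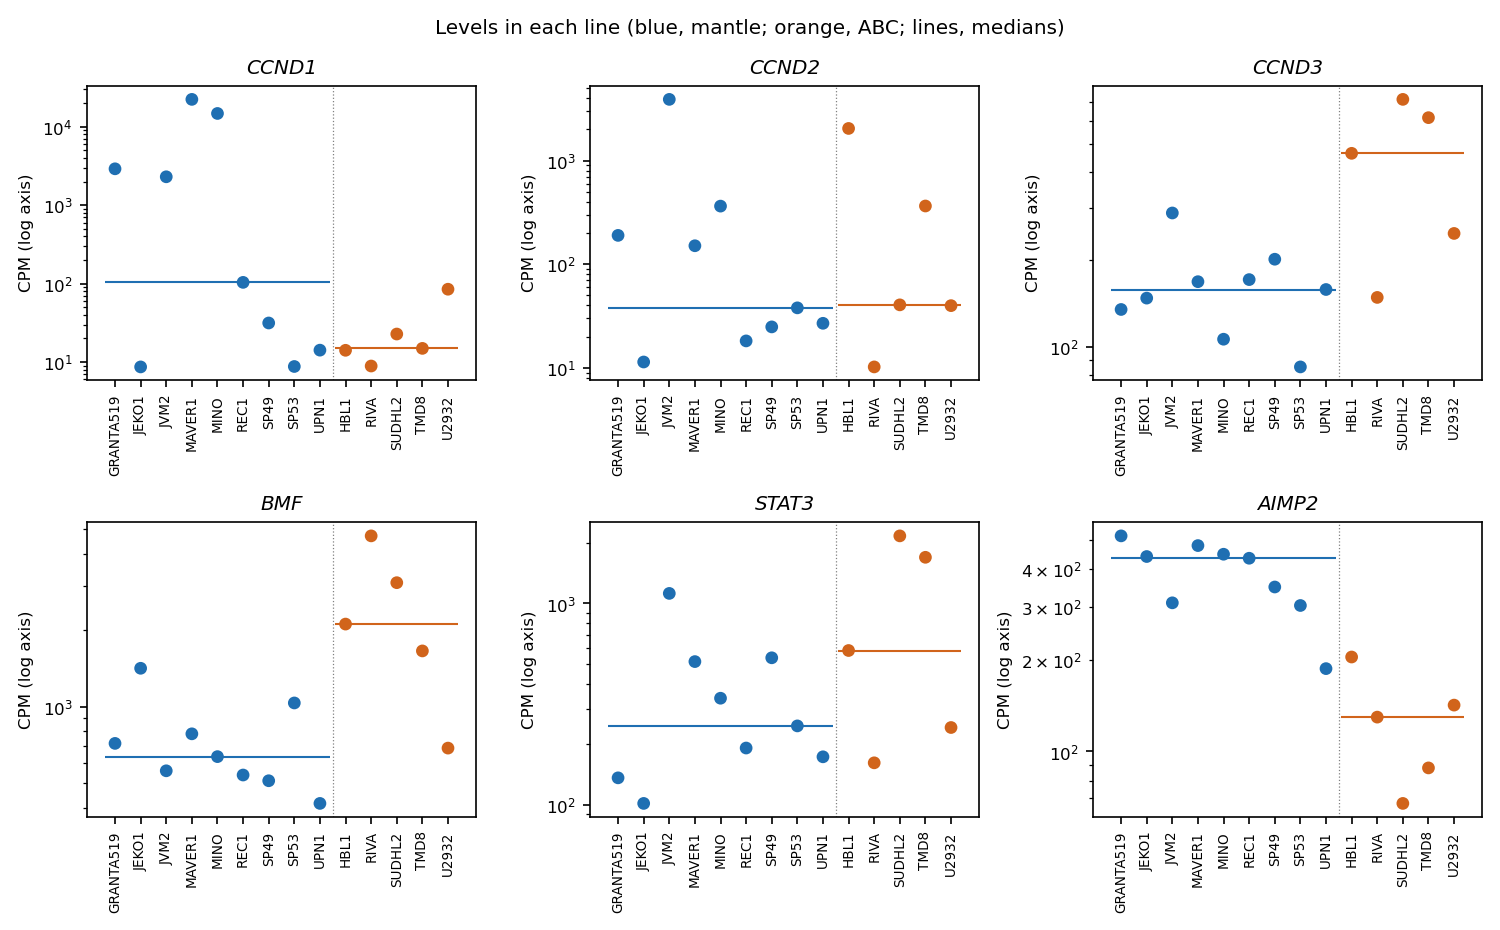
Level in CPM (log y axis) of CCND1, CCND2, CCND3, BMF, STAT3 and AIMP2 in each line (x axis), mantle lines in blue and ABC lines in orange, with a horizontal line at each group's median. CCND1 spans 8.68 to 22380 CPM within the mantle lines, and in the CCND3 panel RIVA is the only ABC point below U2932.

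No gene tied to the ABC type was called. Of 14 tested members of the activated B-cell list, 0 leaned to the mantle side and 2 (14.3%), BATF and STAT3, to the ABC side. The shares of all tested genes were 11.4% and 8.98%, and the list's median was -0.48. IRF4, the transcription factor of the plasma cell exit, ran from 383 CPM in REC1 to 1602 in JVM2 in the mantle lines (median 735) and was 955, 778, 532, 768 and 617 CPM in the ABC lines. JVM2 was the highest line and REC1 the lowest, so the mantle lines spanned all 5 ABC lines (0.23 ± 0.38, adjusted p = 0.719). STAT3, the transcription factor of cytokine signalling, ran from 102 CPM in JEKO1 to 1122 in JVM2 in the mantle lines (median 246) and was 584, 162, 2167, 1696 and 242 CPM in the ABC lines. SUDHL2 and TMD8 lay above all other lines, and RIVA and U2932 below the mantle median (-1.38 ± 0.62, adjusted p = 0.228). Without SUDHL2 and TMD8 the fitted difference turned to 0.18 (adjusted p = 0.936).

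BATF, an AP-1 partner of IRF4, ran from 26.0 CPM in UPN1 to 632 in JVM2 in the mantle lines (median 309) and was 300, 363, 1792, 1922 and 116 CPM in the ABC lines. Again SUDHL2 and TMD8 alone lay above the mantle range (-1.58 ± 0.66, adjusted p = 0.193). PIM1 and PIM2 encode survival kinases under STAT control. PIM1 ran from 47.7 CPM in JVM2 to 1172 in JEKO1 in the mantle lines (median 501) and was 3338, 1950, 697, 372 and 301 CPM in the ABC lines, with HBL1 and RIVA above the mantle lines (-1.29 ± 0.62, adjusted p = 0.245). PIM2 ran from 89.4 CPM in GRANTA519 to 2568 in MINO in the mantle lines (median 943) and was 1990, 1497, 5510, 2231 and 643 CPM in the ABC lines, with SUDHL2 alone above them (-1.22 ± 0.62, adjusted p = 0.261). FOXP1, a B-cell transcription factor, ran from 8.02 CPM in JVM2 to 1076 in JEKO1 in the mantle lines (median 491) and was 474, 1092, 281, 304 and 381 CPM in the ABC lines, and JVM2 was far below every other line (-0.02 ± 0.64, adjusted p = 0.993). Of 33 tested JAK-STAT genes, 3 (9.09%) leaned to the mantle side and 2 (6.06%) to the ABC side, with a median of -0.001. The shares of all tested genes were 11.4% and 8.98%. SOCS3, the feedback inhibitor of STAT3, ran from 1.62 CPM in UPN1 to 582 in SP49 in the mantle lines (median 6.96) and was 141, 11.0, 51.1, 112 and 24.6 CPM in the ABC lines, with SP49 the highest line (0.63 ± 1.24, adjusted p = 0.764).

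Of 12 germinal centre genes tested, BCL6, LMO2 and ASB13 (25%) leaned to the ABC side and 0 to the mantle side, with a median of -0.20. The shares of all tested genes were 8.98% and 11.4%. BCL6, the repressor that holds the germinal centre state, ran from 3.69 CPM in JEKO1 to 20.1 in SP53 in the mantle lines (median 8.52) and was 19.2, 6.41, 21.5, 23.1 and 46.3 CPM in the ABC lines. HBL1 and RIVA lay inside the mantle range and U2932 was the highest line (-1.11 ± 0.51, adjusted p = 0.231). All these levels were low, and with the log2 TMM factor in the fit the BCL6 difference was -0.03. LMO2, a transcriptional adaptor, ran from 2.71 CPM in JEKO1 to 27.9 in MINO in the mantle lines (median 16.5) and was 44.6, 4.92, 31.1, 43.6 and 64.6 CPM in the ABC lines (-1.19 ± 0.52, adjusted p = 0.212), and without RIVA it was called higher in ABC lines (adjusted p = 0.0446). ASB13, a ubiquitin ligase adaptor, ran from 2.19 CPM in JVM2 to 28.0 in MINO in the mantle lines (median 11.2) and was 3.76, 22.9, 20.6, 12.7 and 108 CPM in the ABC lines, and U2932 alone lay above the mantle range (-1.48 ± 0.64, adjusted p = 0.208).

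None of 9 plasma cell genes leaned to either side, against 11.4% and 8.98% of all tested genes on the mantle and ABC side. PRDM1, the regulator that completes plasma cell differentiation, ran from 21.9 CPM in JEKO1 to 356 in JVM2 in the mantle lines (median 144) and was 42.3, 104, 416, 487 and 108 CPM in the ABC lines, with SUDHL2 and TMD8 the only ABC lines above the mantle range (-0.54 ± 0.64, adjusted p = 0.611). XBP1, a factor of the secretory programme, ran from 253 CPM in JEKO1 to 3517 in MAVER1 in the mantle lines (median 953) and was 458, 868, 798, 726 and 695 CPM in the ABC lines, and all 5 ABC lines lay inside the mantle range (0.72 ± 0.50, adjusted p = 0.378). CD38, a surface enzyme of plasma cells, ran from 28.5 CPM in SP53 to 1152 in MAVER1 in the mantle lines (median 362) and was 216, 356, 7.20, 10.9 and 298 CPM in the ABC lines, with SUDHL2 and TMD8 below every mantle line (1.01 ± 0.89, adjusted p = 0.472).

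No NF-kB gene was called. Of 29 tested, 3 (10.3%) leaned to the mantle side, CCL4, CCL22 and GADD45B, and 0 to the ABC side. The shares of all tested genes were 11.4% and 8.98%, so the mantle-side count was near that of all genes. The list's median was 0.39. With the log2 TMM factor in the fit the median was -0.21. NFKB2, the subunit of the alternative pathway, ran from 77.0 CPM in UPN1 to 1347 in JVM2 in the mantle lines (median 304) and was 404, 274, 491, 220 and 175 CPM in the ABC lines, with JVM2 and MAVER1 the highest lines (0.79 ± 0.58, adjusted p = 0.396). NFKBIA, the inhibitor that NF-kB itself induces, ran from 157 CPM in JEKO1 to 1067 in MAVER1 in the mantle lines (median 475) and was 227, 164, 1824, 976 and 91.0 CPM in the ABC lines, with SUDHL2 the highest line and U2932 the lowest (-0.46 ± 0.63, adjusted p = 0.655). TNFAIP3, the A20 inhibitor, ran from 49.2 CPM in UPN1 to 2314 in JVM2 in the mantle lines (median 274) and was 325, 245, 466, 328 and 112 CPM in the ABC lines, with JVM2, GRANTA519 and MAVER1 above all other lines (1.32 ± 0.79, adjusted p = 0.316).

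IL10 and IL6 are cytokines that ABC lymphoma is known to secrete. IL10 ran from 0.562 CPM in UPN1 to 70.7 in MAVER1 in the mantle lines (median 8.79) and was 40.1, 2.97, 89.5, 58.6 and 56.2 CPM in the ABC lines, and RIVA lay far below the other ABC lines (-1.66 ± 0.86, adjusted p = 0.267). IL6 ran from 4.99 CPM in JEKO1 to 77.7 in UPN1 in the mantle lines (median 21.1) and was 15.2, 18.5, 37.3, 75.3 and 50.4 CPM in the ABC lines, with broad overlap (-0.23 ± 0.60, adjusted p = 0.826). CCL4, a chemokine induced by B-cell receptor signalling, ran from 15.2 CPM in JEKO1 to 5455 in JVM2 in the mantle lines (median 699) and was 6.61, 121, 6.02, 2.03 and 5.75 CPM in the ABC lines. The 4 ABC lines other than RIVA lay below every mantle line, and the gene was not called (5.45 ± 1.61, adjusted p = 0.112). Without RIVA it was called higher in mantle lines (adjusted p = 0.0261). CCL4 has a near-identical copy with which it could share reads. CCL22, a chemokine for T cells, ran from 17.8 CPM in JEKO1 to 14440 in JVM2 in the mantle lines (median 791) and was 198, 41.9, 19.9, 102 and 154 CPM in the ABC lines, with JVM2 far above every other line (4.46 ± 1.36, adjusted p = 0.116).

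Of 25 tested genes of chemokine receptors and homing, ITGA4 was called, against 0.176% of all tested genes. Including it, 7 genes (28%) had an unadjusted p under 0.05 on the mantle side and 2 (8%) on the ABC side. The shares of all tested genes were 11.4% and 8.98%, and the list's median was 0.68. CD44, the hyaluronan receptor, ran from 116 CPM in UPN1 to 3087 in REC1 in the mantle lines (median 1803) and was 6892, 639, 4317, 3113 and 615 CPM in the ABC lines, with HBL1 and SUDHL2 the highest lines and UPN1 the lowest (-0.92 ± 0.69, adjusted p = 0.402). CXCR4, the receptor that holds lymphocytes in marrow and lymph node, is named here after its values were seen. It was 3417 CPM in RIVA and 102 to 727 CPM in the other ABC lines, against 178 (REC1) to 7856 CPM (JEKO1) in the mantle lines. It was called without RIVA (adjusted p = 0.0326) and not with it (adjusted p = 0.237).

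B-cell receptor and PI3K genes leaned to the mantle side in 6 of 26 cases (23.1%) and to the ABC side in 0. The shares of all tested genes were 11.4% and 8.98%. The list's median was 0.38, and it was 0.00 with the log2 TMM factor in the fit. Without RIVA, 4 of the 26 were called, all higher in mantle lines, against 7.09% of all genes in that fit. BTK, the kinase that ibrutinib blocks, ran from 322 CPM in JVM2 to 1032 in MINO in the mantle lines (median 461) and was 601, 259, 1127, 524 and 231 CPM in the ABC lines, with SUDHL2 the highest line and no separation (0.06 ± 0.41, adjusted p = 0.943).

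Toll-like receptor and MYD88 genes leaned to the mantle side in 4 of 17 cases (23.5%) and to the ABC side in 1 (5.88%). The shares of all tested genes were 11.4% and 8.98%. TLR7, a receptor for single-stranded RNA, ran from 47.4 CPM in UPN1 to 457 in MAVER1 in the mantle lines (median 136) and was 13.8, 24.1, 84.0, 95.0 and 23.3 CPM in the ABC lines, with SUDHL2 and TMD8 inside the mantle range (1.70 ± 0.60, adjusted p = 0.148). TLR6, a partner of TLR2, ran from 33.1 CPM in JEKO1 to 1126 in SP53 in the mantle lines (median 207) and was 71.2, 162, 84.7, 142 and 76.1 CPM in the ABC lines, with SP53 the highest line and JEKO1 the lowest (1.67 ± 0.62, adjusted p = 0.158).

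No antigen presentation gene was called. Of 5 tested MHC class I genes, 3 (60%) leaned to the mantle side and 0 to the ABC side, and the median was 1.72. The shares of all tested genes were 11.4% and 8.98%. CD74, the invariant chain of MHC class II, ran from 6627 CPM in REC1 to 78110 in JVM2 in the mantle lines (median 29620) and was 22960, 8894, 5103, 8660 and 11130 CPM in the ABC lines, with REC1 the lowest mantle line and SUDHL2 alone below it (1.73 ± 0.55, adjusted p = 0.123). TAP1, a peptide transporter, ran from 60.7 CPM in REC1 to 766 in MAVER1 in the mantle lines (median 147) and was 49.3, 93.3, 66.7, 113 and 103 CPM in the ABC lines. MAVER1, JVM2 and GRANTA519 were the highest lines (1.72 ± 0.62, adjusted p = 0.15), and these 3 lines had the lowest TMM factors, 0.705 to 0.742. GRANTA519 and JVM2 are also the lines known to carry Epstein-Barr virus, and neither trait was tested as a cause. The factor is computed from the same counts, CD74 included. With the log2 TMM factor in the fit, the CD74 difference was 0.28, the TAP1 difference -0.16 and the median of the MHC class I list 0.16.

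Of 16 interferon response genes, 6 (37.5%) leaned to the mantle side and 0 to the ABC side, against 11.4% and 8.98% of all tested genes. The list's median was 1.48, and it was -0.20 with the log2 TMM factor in the fit. Whether composition accounts for these differences was not tested, and the factor and the type of line cannot be told apart. IRF1, an interferon-induced transcription factor, ran from 38.4 CPM in REC1 to 233 in MAVER1 in the mantle lines (median 75.5) and was 23.0, 25.7, 52.2, 35.6 and 29.3 CPM in the ABC lines, and with the factor in the fit its log2 difference was 1.41 (1.57 ± 0.47, adjusted p = 0.116). STAT2, a transducer of interferon signals, ran from 326 CPM in UPN1 to 1598 in MAVER1 in the mantle lines (median 566) and was 258, 519, 188, 336 and 230 CPM in the ABC lines (1.17 ± 0.41, adjusted p = 0.148). Its difference was 0.43 with the factor in the fit, and without RIVA it was called (adjusted p = 0.0417).

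No proliferation gene was called with all lines. Of 35 tested cell cycle and mitosis genes, 16 (45.7%) leaned to the mantle side and 0 to the ABC side. The shares of all tested genes were 11.4% and 8.98%. The list's median log2 difference was 0.91 against 0.06 over all genes. With the log2 TMM factor in the fit, 10 still leaned to the mantle side and the median was 0.73. Without RIVA, 15 of 35 were called, all higher in mantle lines, against 7.09% of all genes in that fit, and the median was 1.42. BUB1, a spindle checkpoint kinase, ran from 448 CPM in REC1 to 1983 in UPN1 in the mantle lines (median 869) and was 233, 597, 109, 323 and 206 CPM in the ABC lines. RIVA alone of the ABC lines lay inside the mantle range (1.73 ± 0.48, adjusted p = 0.112). TTK, another such kinase, ran from 120 CPM in SP49 to 409 in UPN1 in the mantle lines (median 162) and was 69.9, 123, 40.0, 82.2 and 74.6 CPM in the ABC lines, and again RIVA alone overlapped (1.45 ± 0.41, adjusted p = 0.112). Both were called without RIVA (adjusted p = 0.0273 and 0.0326). MKI67, the proliferation antigen Ki-67, named after its values were seen, was 1216 CPM in RIVA, 94.5 to 299 CPM in the other ABC lines and 432 to 3491 CPM in the mantle lines.

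MYC and its targets leaned to the mantle side in 4 of 15 cases (26.7%, against 11.4% of all tested genes), with a median of 0.70. MYC itself ran from 184 CPM in UPN1 to 6032 in JEKO1 in the mantle lines (median 1280) and was 1388, 1010, 388, 601 and 174 CPM in the ABC lines, with JEKO1, MAVER1 and MINO the highest lines and all 5 ABC lines within or below the mantle range (1.57 ± 0.75, adjusted p = 0.247). In the p53 and DNA damage list, 4 of 26 (15.4%, against 11.4% of all tested genes) leaned to the mantle side. MDM2, the ubiquitin ligase of p53, ran from 959 CPM in REC1 to 4027 in JVM2 in the mantle lines (median 1389) and was 652, 1287, 622, 712 and 665 CPM in the ABC lines, and RIVA alone overlapped (1.13 ± 0.39, adjusted p = 0.144). BRCA1, of homologous recombination, ran from 71.6 CPM in JVM2 to 216 in SP49 in the mantle lines (median 167) and was 90.7, 128, 36.3, 45.7 and 34.1 CPM in the ABC lines (1.20 ± 0.42, adjusted p = 0.148), and both were called without RIVA (adjusted p = 0.0406 and 0.0326). CDKN2A, the p16 and ARF locus, ran from 0.273 CPM in MAVER1 to 323 in MINO in the mantle lines (median 3.48) and was 1.37, 171, 44.8, 49.8 and 89.9 CPM in the ABC lines, with lines near 0 in both groups (-0.06 ± 1.35, adjusted p = 0.987).

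Chromatin modifiers leaned to the mantle side in 6 of 22 cases (27.3%) and to the ABC side in 0, with a median of 0.66. The shares of all tested genes were 11.4% and 8.98%. Among the 568 tested genes with the highest mean level, 127 had an unadjusted p under 0.05 on the mantle side and 14 on the ABC side. SMARCA4, the ATPase of the SWI/SNF complex, ran from 921 CPM in JVM2 to 2539 in REC1 in the mantle lines (median 1901) and was 660, 1793, 422, 471 and 777 CPM in the ABC lines, with RIVA alone inside the mantle range (1.11 ± 0.38, adjusted p = 0.143). EP300, a histone acetyltransferase, ran from 730 CPM in MINO to 1555 in JEKO1 in the mantle lines (median 1160) and was 722, 1009, 178, 264 and 495 CPM in the ABC lines, with RIVA alone inside that range (1.02 ± 0.39, adjusted p = 0.171). Without RIVA both were called higher in mantle lines (adjusted p = 0.0195 and 0.0374).

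The BCL2 family gave 1 lean of 17 (5.88%, against 8.98% of all tested genes), BMF on the ABC side, and a median of -0.63. BMF is a BH3-only protein that promotes apoptosis. It ran from 416 CPM in UPN1 to 1419 in JEKO1 in the mantle lines (median 637) and was 2119, 4717, 3085, 1661 and 688 CPM in the ABC lines. RIVA, SUDHL2, HBL1 and TMD8 lay above every mantle line and U2932 inside their range (-1.74 ± 0.39, adjusted p = 0.0669). It was called without RIVA (adjusted p = 0.0343). PMAIP1, or NOXA, ran from 191 CPM in REC1 to 2425 in MAVER1 in the mantle lines (median 832) and was 987, 6230, 410, 232 and 7010 CPM in the ABC lines, with RIVA and U2932 above the mantle lines and TMD8 below all but REC1 (-1.48 ± 0.73, adjusted p = 0.25). BCL2 ran from 47.2 CPM in UPN1 to 4674 in MAVER1 in the mantle lines (median 1074) and was 1185, 5657, 327, 285 and 5326 CPM in the ABC lines, with UPN1 far below the others (-0.89 ± 0.79, adjusted p = 0.48). BCL2A1, an inhibitor of apoptosis induced by NF-kB, ran from 53.1 CPM in JEKO1 to 4014 in SP53 in the mantle lines (median 824) and was 524, 242, 5037, 3547 and 2648 CPM in the ABC lines (-0.86 ± 0.88, adjusted p = 0.548).

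Other surface and signalling lists had few leans. Of 27 TNF superfamily genes, TNFRSF21 (3.70%) leaned to the mantle side and TNFRSF25 (3.70%) to the ABC side, against 11.4% and 8.98% of all tested genes. TNFRSF21, a death-domain receptor, ran from 33.6 CPM in REC1 to 367 in JEKO1 in the mantle lines (median 191) and was 20.2, 198, 15.6, 55.4 and 29.7 CPM in the ABC lines, with RIVA inside the range of most mantle lines (1.65 ± 0.64, adjusted p = 0.173). TNFRSF25, another death-domain receptor, ran from 1.17 CPM in JVM2 to 66.9 in MAVER1 in the mantle lines (median 9.96) and was 15.8, 62.2, 77.3, 99.4 and 13.8 CPM in the ABC lines (-1.83 ± 0.76, adjusted p = 0.193). Without RIVA, TNFRSF21 was called (adjusted p = 0.0231). Among 18 checkpoint and costimulation genes the only lean (5.56%, against 8.98% of all tested genes on the ABC side) was IDO1, an enzyme that breaks down tryptophan. It ran from 5.14 CPM in GRANTA519 to 12.7 in SP49 in the mantle lines (median 9.60) and was 22.9, 4.36, 23.8, 15.7 and 18.5 CPM in the ABC lines, with RIVA below every mantle line and the other ABC lines above all of them (-0.94 ± 0.42, adjusted p = 0.217). Without RIVA, IDO1 was called higher in ABC lines (log2 difference -1.19, adjusted p = 0.0436).

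Among genes of developmental pathways, none was called. Of 16 NOTCH genes, 1 (6.25%) leaned to the mantle side and 2 (12.5%) to the ABC side, against 11.4% and 8.98% of all tested genes. Those on the ABC side included RBPJ, the DNA-binding factor of the pathway. RBPJ ran from 227 CPM in SP49 to 466 in JVM2 in the mantle lines (median 390). In the ABC lines it was 833, 642, 394, 386 and 467 CPM (-0.61 ± 0.29, adjusted p = 0.238). Of 36 WNT genes, 1 (2.78%) leaned to the mantle side and 6 (16.7%) to the ABC side, with a median of -0.21. The shares of all tested genes were 11.4% and 8.98%. Among the 568 tested genes with the lowest mean level, WNT7B and WNT2 included, 12 had an unadjusted p under 0.05 on the mantle side and 104 on the ABC side. WNT7B, a ligand, ran from 3.52 CPM in GRANTA519 to 11.4 in SP49 in the mantle lines (median 6.74) and was 28.2, 7.43, 1.68, 12.8 and 190 CPM in the ABC lines, with U2932 the highest line by far (-2.83 ± 0.73, adjusted p = 0.0911). WNT2, another ligand, ran from 1.3 CPM in JEKO1 to 8.52 in REC1 in the mantle lines (median 3.92) and was 10.8, 6.04, 27.8, 11.8 and 17.9 CPM in the ABC lines, with RIVA alone of the ABC lines inside the mantle range (-1.80 ± 0.49, adjusted p = 0.101). Without RIVA both were called higher in ABC lines (adjusted p = 0.0275 and 0.0291).

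Markers of other cell types, fixed as short lists of defining genes, were summed per line. The sum of 7 T and NK cell markers ran from 48.7 to 658 CPM in mantle lines and from 173 to 783 CPM in ABC lines, and that of 4 epithelial markers from 460 to 1205 CPM and from 570 to 1512 CPM. Of 6 myeloid markers, 1 was at 0 in at least 1 line, and the sum was at most 169 CPM in mantle and 255 CPM in ABC lines. The sum of 5 stromal and endothelial markers ran from 109 to 710 CPM in mantle lines (median 243). In ABC lines it ran from 82.6 to 1210 CPM (median 153), the highest in HBL1. No longer list of such genes held a called gene. Of 12 T and NK cell genes, 1 (8.33%) leaned to the mantle side and 3 (25%) to the ABC side, against 11.4% and 8.98% of all tested genes. GZMB, the granzyme of cytotoxic cells, ran from 1.91 CPM in MAVER1 to 37.3 in JVM2 in the mantle lines (median 14.3) and was 253, 4.46, 25.9, 257 and 37.5 CPM in the ABC lines, with HBL1 and TMD8 the highest lines (-3.06 ± 0.82, adjusted p = 0.1). Without RIVA it was called higher in ABC lines (log2 difference -3.37, adjusted p = 0.0261). TBX21, the T-bet factor, ran from 9.69 CPM in MAVER1 to 333 in JVM2 in the mantle lines (median 23.2) and was 18.8, 14.3, 6.81, 8.14 and 21.5 CPM in the ABC lines, with JVM2 the highest line (2.38 ± 0.84, adjusted p = 0.149). Of 7 epithelial markers, EPCAM, KRT14, KRT18 and MUC1 leaned to the ABC side (57.1%, against 8.98% of all tested genes). KRT14, a keratin, ran from 3.91 CPM in JEKO1 to 17.3 in MINO in the mantle lines (median 9.51) and was 60.7, 3.16, 23.9, 15.1 and 63.6 CPM in the ABC lines, with RIVA below every mantle line (-1.81 ± 0.56, adjusted p = 0.116). KRT14 too was called without RIVA (log2 difference -2.11, adjusted p = 0.0257). MUC1, a mucin, ran from 11.8 CPM in REC1 to 52.8 in SP49 in the mantle lines (median 35.3) and was 41.3, 96.0, 84.8, 55.3 and 55.7 CPM in the ABC lines (-0.95 ± 0.37, adjusted p = 0.181). None of 7 myeloid markers or 4 cancer-testis genes leaned. Of 9 stromal and endothelial genes, COL1A1 and FLT1 leaned to the mantle side (22.2%, against 11.4% of all tested genes). FLT1, a VEGF receptor, ran from 0.729 CPM in JVM2 to 252 in UPN1 in the mantle lines (median 41.4) and was 2.74, 32.6, 7.20, 4.26 and 1.20 CPM in the ABC lines (2.99 ± 1.09, adjusted p = 0.152). Without RIVA it was called higher in mantle lines (log2 difference 4.31, adjusted p = 0.0348). COL1A1, a collagen chain, ran from 4.23 CPM in JEKO1 to 331 in GRANTA519 in the mantle lines (median 26.6) and was 12.7, 21.5, 2.07, 15.2 and 6.70 CPM in the ABC lines (2.81 ± 1.00, adjusted p = 0.15), and its log2 difference was 0.28 with the log2 TMM factor in the fit.

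The direction of a gene's difference moved with its mean level. The tested genes were split into 4 groups of equal size by mean log2 CPM. In the group with the lowest mean, 12 of 568 genes had an unadjusted p under 0.05 with the mantle level higher and 104 with the ABC level higher. In the group with the highest mean, the counts were 127 and 14. The median log2 difference was -0.74, -0.26, 0.35 and 0.47 from the lowest group to the highest. The counts of the gene lists were not compared with those of genes of like mean level. With the log2 TMM factor in the fit, 0 genes were called (smallest adjusted p = 0.297), and 128 and 98 genes had an unadjusted p under 0.05 on the mantle and ABC side. In the plot of list medians, the MYC list went from 0.70 to 0.61 and the BCL2 family from -0.63 to -0.67 with the factor in the fit, and the activated B-cell list from -0.48 to -0.89. The homing list went from 0.68 to 0.01, the p53 and DNA damage list from 0.54 to -0.05, the chromatin list from 0.66 to 0.30 and the plasma cell list from 0.62 to -0.53. Among single genes, CCL4 went from 5.45 to 2.73, CCL22 from 4.46 to 2.21, MYC from 1.57 to 0.61 and MDM2 from 1.13 to 0.40.

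**Figure D5:**
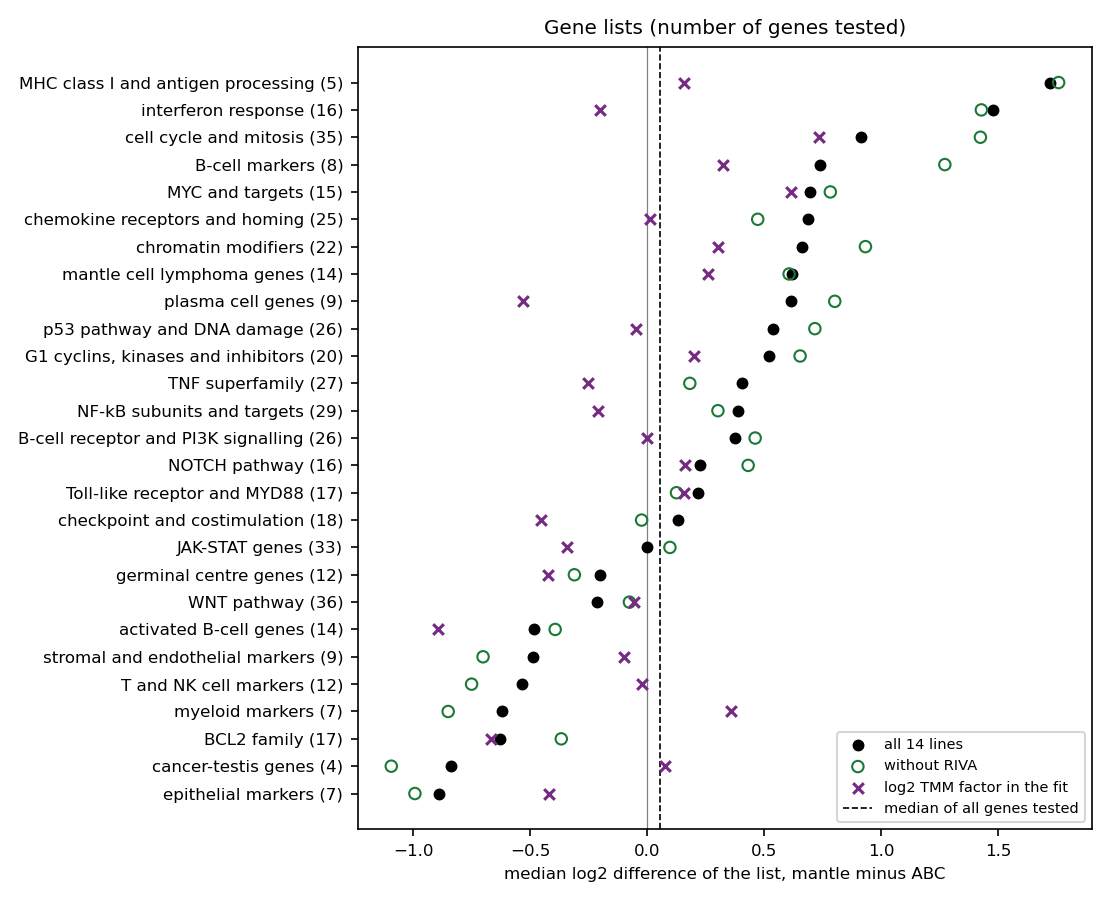
Median log2 difference, mantle minus ABC (x axis), of each gene list (y axis, number of genes tested in brackets), from all 14 lines (black), without RIVA (green circles) and with the log2 TMM factor in the fit (purple crosses). The dashed line is the median of all genes tested at 0.06, and the cell cycle list lies to its right in all 3 fits, at 0.91, 1.42 and 0.73.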

How the data were processed

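Targeted RNA-Seq counts of 36 lymphoma lines, 1 library per line, were deposited by the authors as whole-number counts per panel gene, with no scaling, per the file headers and values. The authors' second deposited table holds log2 values, each equal to the log2 of the count over a factor per library, plus 1, within 0.00531. The submitters' processing notes name build hg38, while neither aligner nor strand setting is recorded in the labels or headers read here. Columns were matched to lines through the labels, and the lines to the mantle and ABC types by name. The members and gene lists were chosen with earlier results of these data known. The 10 control probes (at most 0.00293% of a library's counts) were left out. The 14 libraries held 8163552 to 12472040 counts, and a count of 0 allows 3 counts, which covers counting error only. Genes reaching 10 CPM in 4 or more lines were fitted in edgeR 4.0.16 (R 4.3.3) with TMM factors and glmQLFTest, with Benjamini-Hochberg adjustment over 2272 genes and a threshold of 0.05. The SE is the log2 difference over the square root of F. Correlations used log2 CPM with a prior count of 2. No batch is named in the labels. Scripts were tested on simulated data.

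Named by rule were the 15 largest called differences per side that stayed called in 12 of 14 fits without 1 line (none did), key genes of both lymphomas, up to 4 called members of each list or otherwise the 2 of smallest p, and the 5 genes of smallest p per side. Exceptions are marked, and results of some genes are not reported here. Alternatives were other scalings and filters, the DESeq2 1.42.0 Wald test, limma 3.58.1 (voom, and limma-trend on the authors' log2 values), the log2 TMM factor as a covariate, each line left out, and the lines without GRANTA519 and JVM2. Chosen after seeing the data were the covariate without RIVA, SP49 and SP53 summed, lines with a TMM factor from 0.9 to 1.3 alone, and the fit without SUDHL2 and TMD8. A planned motif count in promoters was void, since 1803 of 2272 genes had a promoter sequence, under the 80% required. Coordinates are those of GENCODE on GRCh38.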

Additional observations from a re-analysis of the deposited data

Results flagged for a closer look

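In 13 of 148 groups of values checked (9 mantle or 5 ABC lines of a named gene, on the log2 CPM scale), the extreme line lay further from its nearest neighbour than Dixon's 95% limit allows. Chance flags about 1 in 20 such groups. In 8 of the 13, the line was RIVA among the ABC lines. RIVA was low for ITGA4 (45.4 CPM, next 135), IL10 (2.97, next 40.1), LMO2 (4.92, next 31.1), IDO1 (4.36, next 15.7), MPO (3.34, next 25.5) and SSX1 (18.4, next 79.0). It was high for CCL4 (121 CPM, next 6.61) and MDM2 (1287, next 712). REC1 was low among the mantle lines for TNFRSF21 (33.6 CPM, next 115). JVM2 was low for FOXP1 (8.02 CPM, next 153) and DNAJC6 (0.146, next 2.50), and JEKO1 for LMO2 (2.71, next 10.6). The DNAJC6 value lies below the 0.437 CPM that 3 counts equal in JVM2, so that flag rests on a level at the floor. Among the ABC lines HBL1 was low for CDKN2A (1.37 CPM, next 44.8).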

How the results depend on the processing

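With all 14 lines 4 genes were called, 1 higher in mantle and 3 higher in ABC lines. DESeq2 size factors gave 4 (1 and 3) and no filter 5 (1 and 4). Upper-quartile factors gave 26 (1 and 25) and library size alone 26 (2 and 24), and these scalings moved the median over all genes from 0.06 to -0.30 and -0.34. A filter at 50 CPM gave 2 (1 and 1), which leaves 1616 genes to test. The DESeq2 Wald test gave 133 (67 and 66), with 17 genes without an adjusted p. Limma-voom gave 0 (0 and 0), with 431 genes at an unadjusted p under 0.05, and limma-trend on the authors' log2 values gave 1 (1 and 0). The log2 TMM factor in the fit gave 0 (226 genes at an unadjusted p under 0.05), that factor without RIVA 0 (419), SP49 and SP53 summed 0 (458), lines with a factor from 0.9 to 1.3 alone 0 (149), and the fit without SUDHL2 and TMD8 0 (226), and these fits were not run with another tool. The fit without GRANTA519 and JVM2 gave 13 (4 and 9). With 1 line left out the count ran from 0 to 267, from 0 to 161 on the mantle side and from 0 to 106 on the ABC side. The cause of these shifts was not tested. ITGA4, PTK2, CREB3L1 and FES kept their direction in every fit that tested them. No paired analysis was possible because each line is a separate culture and nothing in the labels pairs a mantle line with an ABC line.

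Genes that were not called in the fit of all lines changed the sign of their log2 difference in some fits. By the DESeq2 Wald test they were CCND2 -2.27. With SP49 and SP53 summed they were CDKN2A 0.11. With library size alone they were CCND2 -0.49, IRF4 -0.25 and BTK -0.36. By limma-trend on the authors' log2 values they were CCND2 -0.33, NFKBIA 0.10 and SOCS3 -1.48. By limma-voom they were CCND2 -0.45, NFKBIA 0.10 and SOCS3 -1.49. Over lines with a factor from 0.9 to 1.3 they were CCND2 -4.87, IRF4 -0.55, FOXP1 0.039, NFKB2 -0.73, TNFAIP3 -0.91, IL6 0.70 and BTK -0.47. With the log2 TMM factor they were CCND2 -4.81, IRF4 -0.69, FOXP1 0.004, NFKB2 -0.99, TNFAIP3 -1.39, IL6 1.03, BTK -0.04, CDKN2A 0.16, TAP1 -0.16 and MAGEA2 0.14. With that factor and without RIVA they were CCND2 -5.53, IRF4 -0.96, FOXP1 0.97, NFKB2 -1.43, TNFAIP3 -1.95, IL6 1.10, BTK -0.43, CDKN2A 4.33, TAP1 -0.67, CD74 -0.19 and TNFSF9 -0.069. With upper-quartile factors they were CCND2 -0.50, IRF4 -0.20 and BTK -0.36. Without GRANTA519 and JVM2 they were CCND2 -2.47, FOXP1 0.25 and CDKN2A 0.19. Without SUDHL2 and TMD8 they were CCND2 -0.41, STAT3 0.18, PRDM1 0.91, NFKBIA 1.57, BCL2A1 0.21, IL6 0.26, BATF 0.21 and MAGEA2 0.057. With 1 line left out, the log2 differences spanned CCND2 -2.28 to 2.10, FOXP1 -0.24 to 0.48, NFKBIA -0.74 to 0.39, IL6 -0.56 to 0.14, SOCS3 -0.58 to 1.00, BTK -0.13 to 0.50 and CDKN2A -0.95 to 0.56. Depth limits the weakest genes: 3 counts equal 0.197 to 0.437 CPM.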
